A study of Homo sapiens with 10 samples.

Results

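A set of 65 genes of the Kuramochi cell line was higher at the low doses of an olaparib escalation, 1 to 5 µM, than in untreated cells and than at the highest doses. They were chosen from measured values. The UMI counts (molecules counted by their identifiers) of all cells of a population were summed and scaled by the column total to CPM, and L was defined as log2(CPM + 10). A gene entered if it had 100 or more UMIs in all, reached 50 CPM in a population, and had a mean L over T1, T2.5 and T5 at least 1 above the highest L of C, T160 and T320. Of the 5520 genes that met both minimums, 78 (1.41%) passed this threshold. The 13 of them that were left out by name are collagens, insulin-like growth factor binding proteins, interferon-induced genes whose symbols start with IFI, BST2 and KLK5, which leaves 65 of the 12373 genes in the matrix. Kuramochi is a human high-grade serous ovarian carcinoma line, labelled epithelial and BRCA2-mutant. Olaparib inhibits PARP enzymes, which repair DNA breaks. The populations were T1, T2.5, T5, T10, T20, T40, T80, T160 and T320, adapted in series to 1, 2.5, 5, 10, 20, 40, 80, 160 and 320 µM olaparib and grown in it to confluency, and the untreated cells C. Every population carries the BRCA2 mutation, and each was profiled by inDrop droplet sequencing as 1 library, so no population has a replicate and the difference between populations is also a difference between libraries.

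The 65 genes include 9 contractile and mural genes and 12 matrix genes, of kinds known from smooth muscle cells, pericytes and fibroblasts. In those cells actin isoforms and myosin light chains form contractile filaments, secreted glycoproteins such as fibronectin and fibrillin form the matrix that the filaments pull on, and receptors for platelet-derived growth factor and endothelin act upstream. Carcinoma cells that turn on mesenchymal genes are known to express some of the same genes. Semaphorins with their plexin and neuropilin receptors, first described in the steering of axons, also act on the adhesion and movement of other cells.

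The name of the set, high at 1 to 5 µM alone, held for C, T160 and T320, where the rule fixes it, and only in part for the middle doses, which entered the rule through its UMI and CPM minimums alone. The highest CPM lay at T1 for 19 genes, at T2.5 for 8, at T5 for 24, at T10 for 7, at T20 for 3 and at T40 for 4. Thus 14 of the 65 peaked between 10 and 80 µM. The number of genes at least 2-fold (1 on the L scale) above the highest of C, T160 and T320 was 43 at T1, 50 at T2.5, 55 at T5, 36 at T10, 25 at T20, 13 at T40 and 11 at T80. The rule chose genes for which this line is low, and the counts were not made over all genes, so they are descriptions. In all 4 middle doses 10 genes stayed above that line, namely PLXNA4, LTBP1, MTRNR2L8, SBSPON, EDNRA, MTRNR2L12, TAGLN, FN1, ACTA2 and CA11, and 24 genes were above it in none of them. Within the low doses the genes did not move as a block. In 20 genes the level ran T1 < T2.5 < T5, in 14 it ran T1 > T2.5 > T5, and only 22 were 2-fold above the line in each of the 3 low doses.

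**Figure D1:**
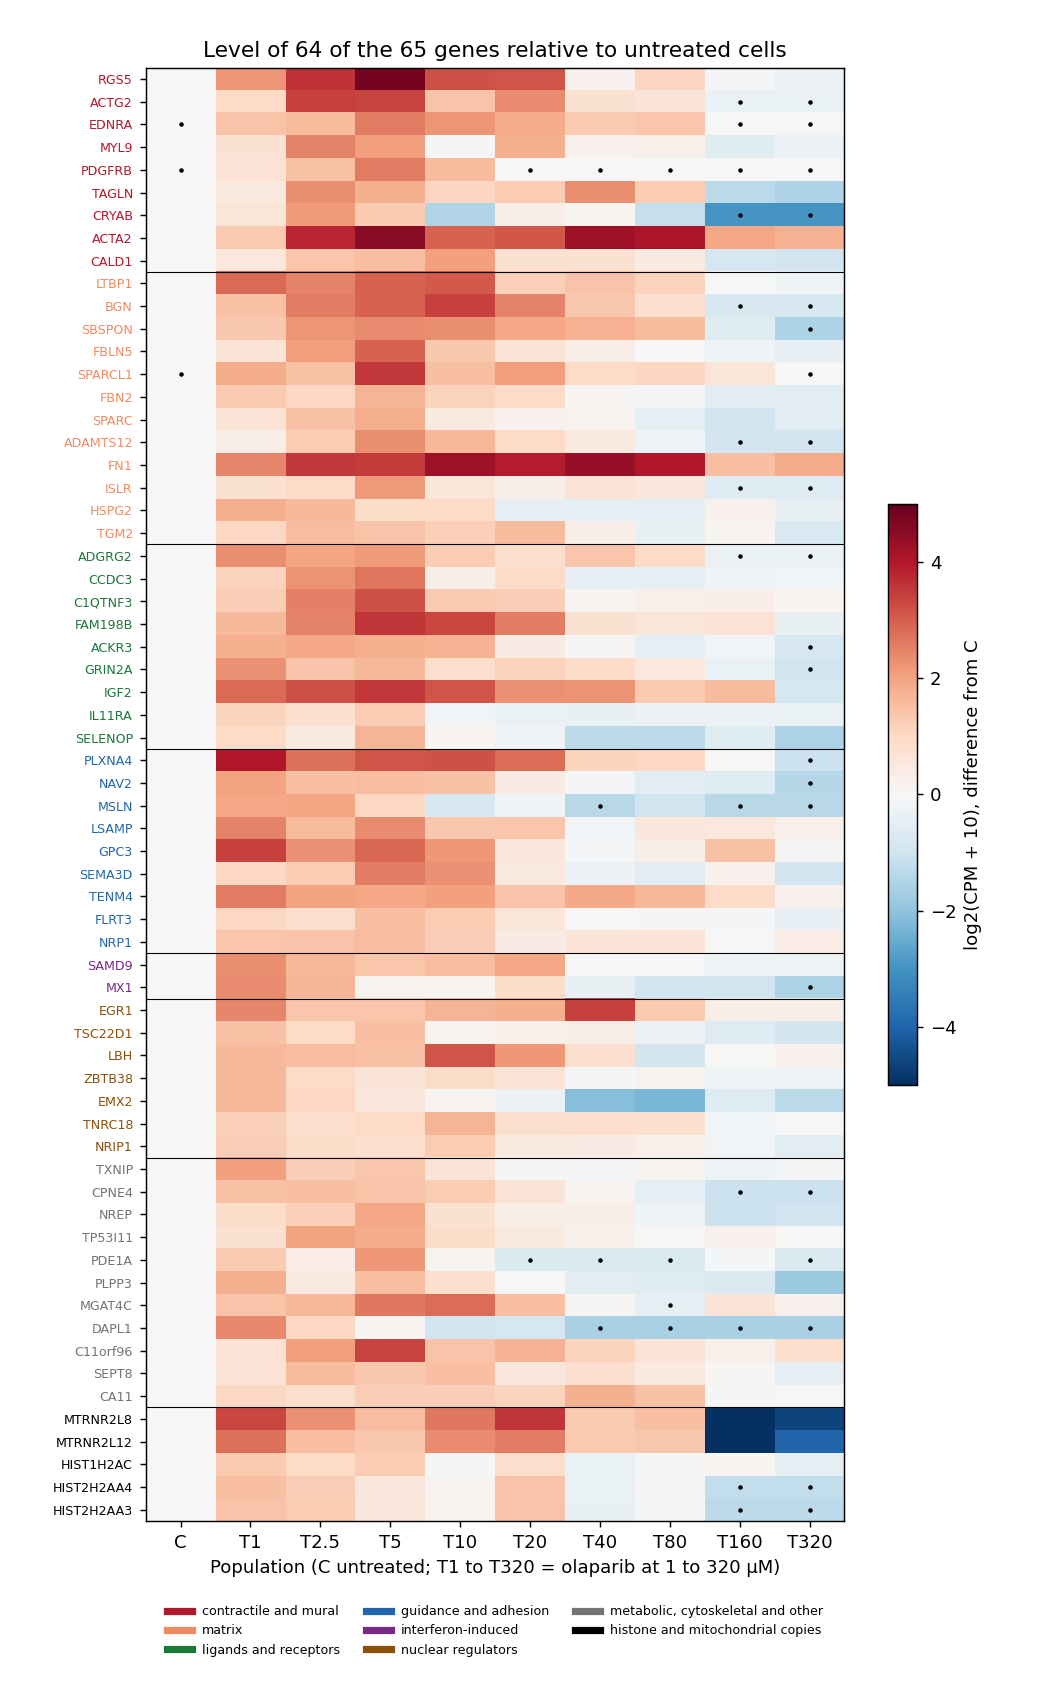
Rows are 64 of the 65 genes grouped by role (label colour), columns the 10 populations, and colour the difference of log2(CPM + 10) from C, limited to ±5 (the MTRNR2L rows go beyond this at T160). Black dots mark genes listed at 0. Among the low doses, the contractile block is strongest at T2.5 and T5, and the interferon-induced and most nuclear genes at T1. ACTA2 and FN1 stay high from T2.5 to T80.

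Among the libraries, UMI totals ran from 1976069 in T5 to 9343704 in C and median UMIs per cell from 1145 in T2.5 to 2974.5 in T80, over 18209 cells. Mitochondrial transcripts took 7.08% to 9.31% of UMIs in the treated populations and 11.5% in C. Each library lists a gene either at 0 or in at least 0.957% to 0.995% of its cells, so a gene listed at 0 may be present in up to about that share of cells, and no fold is given against such a value. Listed at 0 were 3 of the genes in C (EDNRA, SPARCL1 and PDGFRB), 13 in T160, 21 in T320 and none in T1, T2.5 or T5. A deposited table lists 8240 of the cells (45.3%) with a state, 453 of 1845 in C and 1223 of 2312 in T1 among them. Its name carries the label g1, so its cells may have been selected by cell-cycle phase. Differences between listed and unlisted cells may then also be differences of phase, which was not tested. The matrix also holds 970 barcodes that occur in more than 1 library (1984 cells). Doublets were neither called nor removed here, so shares of cells and values by state may include them. Intervals below are 95% exact intervals that cover counting error only. The difference between members just inside and just outside the threshold was small, with NRIP1 at 1.003, TNRC18 at 1.019 and CA11 at 1.038 inside, and PCNX3 at 0.999, KAZALD1 at 0.991 and SERTAD3 at 0.989 outside.

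Contractile and mural genes made up 9 of the 65. RGS5, a regulator of G-protein signalling used as a pericyte marker (the symbol has 2 annotated entries), had 9.0 CPM in C, 78.3 at T1, 221.7 at T2.5, 519.2 at T5, 163.0 at T10, 157.0 at T20, 12.1 at T40, 29.6 at T80, 7.6 at T160 and 5.7 at T320. It was highest in T5, 57.8-fold above C (46.2 to 73.0), and had 12.1 CPM or less at T40, T160 and T320. ACTA2, smooth muscle alpha-actin, had 45.7 CPM in C, 126.2 at T1, 773.2 at T2.5, 1266 at T5, 423.4 at T10, 475.1 at T20, 1050 at T40, 934.9 at T80, 201.7 at T160 and 174.4 at T320. Its level therefore had a dip at T10 and T20 and a return at T40 and T80, which the RGS5 series lacks. TAGLN, the actin-binding transgelin, had 365.4 CPM in C, 517.5 at T1, 1878 at T2.5, 1273 at T5, 774.5 at T10, 885.6 at T20, 1888 at T40, 891.9 at T80, 138.2 at T160 and 117.1 at T320, with nearly equal maxima at T2.5 and T40.

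ACTG2, the gamma-actin of enteric smooth muscle, was 47.95-fold higher in T2.5 than in C (31.8 to 75.8) and listed at 0 in T160 and T320. MYL9, a myosin regulatory light chain, had 920.7 CPM at T2.5, 695.8 at T5, 145.9 at T10 and 564.0 at T20, against 155.0 in C. CRYAB, a small heat shock protein abundant in muscle and lens, had 323.4 CPM in T2.5 and 17.1 in T10, against 66.3 in C. CALD1, the actin-binding protein caldesmon, was the gene of this group with its maximum at T10, at 2167 CPM, against 510.2 in C. The receptor genes were rarer. PDGFRB, the beta receptor for platelet-derived growth factor, had 6.4 CPM at T1, 17.3 at T2.5, 51.1 at T5 and 20.2 at T10, and was listed at 0 in C and in every population from T20. EDNRA, the endothelin A receptor, had 16.9 CPM at T1, 20.2 at T2.5, 51.1 at T5 and 36.3 at T10, and was listed at 0 in C, T160 and T320. None of the 9 was highest at T1 among the low doses. Their median difference from C on the L scale was 0.78 at T1, 2.33 at T2.5 and 2.61 at T5, and their summed level was 1154 CPM in C, 5621 at T2.5, 5631 at T5 and 680.8 at T320.

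**Figure D2:**
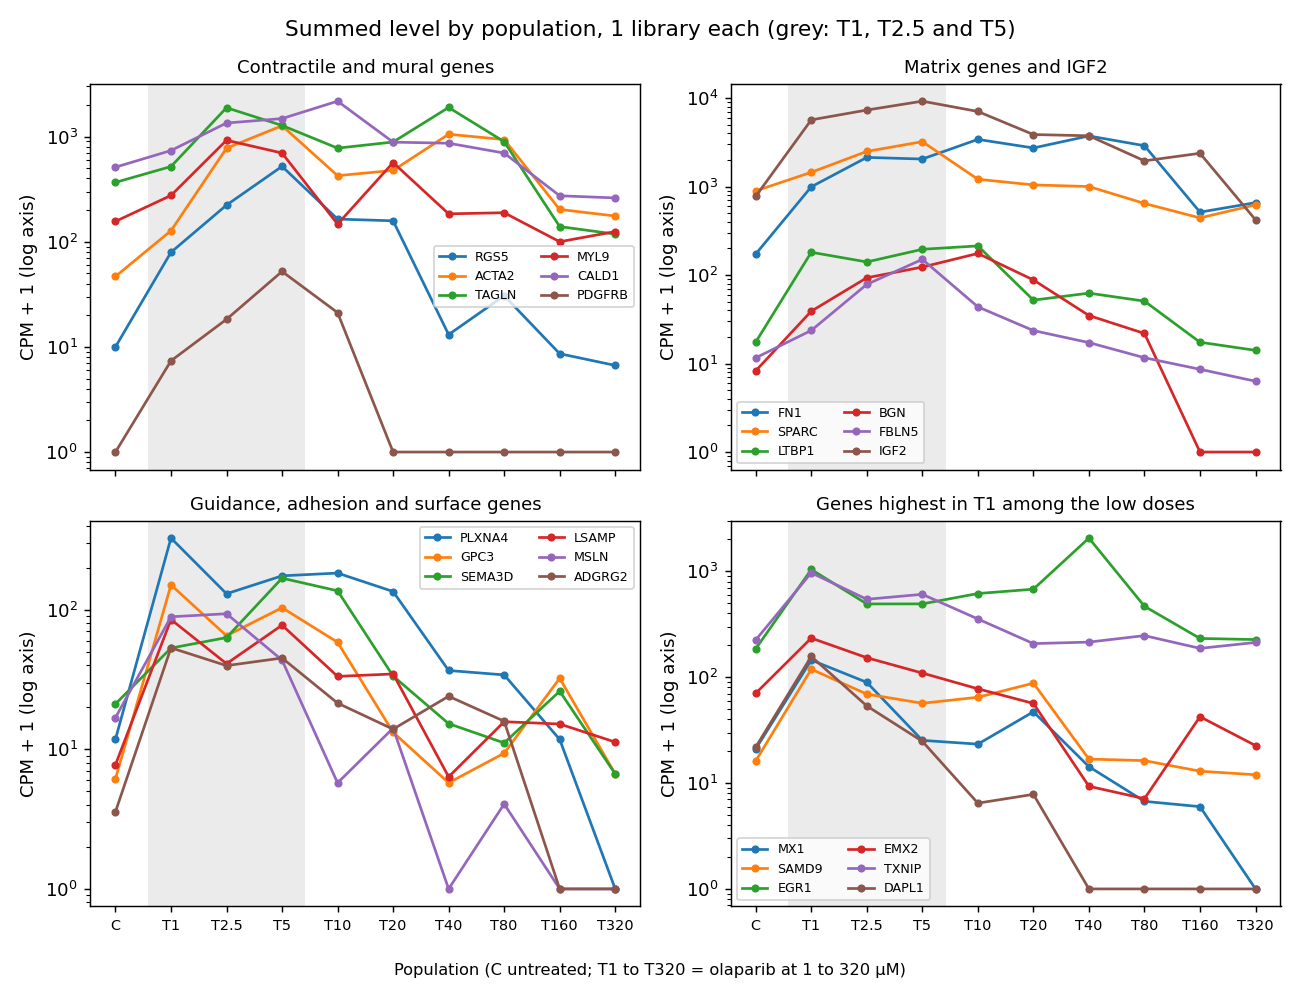
Each line is a gene, the x axis the 10 populations in order of dose, and the y axis CPM + 1 on a log scale, with T1, T2.5 and T5 shaded. RGS5 and PDGFRB peak at T5, TAGLN and ACTA2 have a second maximum at T40, FN1 stays high to T80, and MX1, EMX2 and DAPL1 are highest at T1.

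Markers of mural cells outside the 65 genes were present in part. Of the 9 smooth muscle and pericyte markers looked at, NOTCH3 had 90.5 CPM in T1, 110.1 in T2.5 and 121.5 in T5, against 41.4 in C, and LMOD1 had 47.0, 57.9 and 43.5 CPM in the same populations, against 5.6 in C. At T160 and T320 NOTCH3 had 101.4 and 76.8 CPM, and LMOD1 had 37.4 and 5.7. ACTA2 and RGS5 are the other markers of that list with values, while MYH11, CNN1, DES, KCNJ8 and ABCC9 are without values here. Of 12 fibroblast markers 7 have values, and their summed level was 4364 CPM at T1, 3919 at T2.5 and 4705 at T5, against 4109 in C. S100A4 was the largest part of that sum, with 3867, 2825 and 2421 CPM, against 4005 in C. COL3A1, which the rule left out by name, had 346.3, 792.4 and 1950 CPM, against 20.0 in C. COL1A1, also left out by name, had 70.6, 186.5 and 171.6 CPM, against 5.2 in C. THY1 had 58.8, 79.0 and 95.6 CPM, against 44.4 in C, and PDPN 15.6, 18.6 and 10.6 CPM, against 34.9 in C. PDGFRA was listed at 0 at T1, T2.5 and C, and DCN, LUM, COL1A2, FAP and TCF21 are without values. Of 10 endothelial markers 5 have values, with a summed level of 161.8 CPM at T1, 243.8 at T2.5 and 393.7 at T5, against 135.8 in C. EMCN, the sialomucin endomucin, had 22.7, 43.8 and 203.9 CPM and was listed at 0 in C, and TIE1, a receptor tyrosine kinase, had 128.9, 193.5 and 189.8 CPM, against 121.5 in C. CDH5 and KDR, which define endothelium, were listed at 0 at T1, T2.5 and T5, with 7.0 and 3.6 CPM in C. The leukocyte marker CD68 was listed at 0 in C, T1, T2.5 and T5, and the erythroid HBG2 everywhere except T80. All 15 markers of the labelled epithelial origin have values, and their summed level was 2562 CPM at T1, 2961 at T2.5 and 1460 at T5, against 2601 in C. PAX8 had 543.8, 381.7 and 341.1 CPM, against 298.9 in C, and KRT8 852.1, 1323 and 553.1 CPM, against 1027 in C. SOX17 had 141.2, 114.2 and 67.8 CPM, against 390.0 in C, and WT1 82.4, 57.6 and 39.0 CPM, against 135.2 in C, while EPCAM and MUC16 were listed at 0 in all 4 populations. By mean L over the low doses minus C, SOX17 and WT1 were the 2 at least 2-fold lower of the 10 markers that met both minimums. The 3 higher were MSLN and EMX2, which the rule chose, and CLDN4. CLDN4 had 120.4, 74.2 and 89.1 CPM, against 32.2 in C. The part of these markers in the levels of the contractile genes was not tested.

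The promoters of the set were searched for short motifs, on both strands of the 300 bases from 250 before to 50 after the start site (RefSeq, GRCh38.p14), which were at hand for 50 of the 65 genes and 4571 genes that met both minimums. The CArG box, the binding motif of serum response factor at contractile and immediate-early genes, was added after values had been seen. Only its strict form CCWWWWWWGG (W for A or T) was searched, so a box with another base inside it or outside the window was missed. The strict form lay in the promoters of 4 of the 50 (8%), ACTG2, SPARCL1, CPNE4 and EGR1, against 1.33% of all 4571. Of the contractile and mural genes, ACTG2 alone had a match. RGS5, EDNRA, PDGFRB, ACTA2 and CALD1 were searched without a match to the strict form, which does not mean that they lack a box. TAGLN, MYL9 and CRYAB had no promoter at hand. ACTG2 (chr2:73892758-73893057, plus strand) and EGR1 (chr5:138465229-138465528, plus strand) each hold 2 boxes and are printed 5′ to 3′, with the CArG boxes and, in ACTG2, the TATA box on the opposite strand in capitals.
ACTG2: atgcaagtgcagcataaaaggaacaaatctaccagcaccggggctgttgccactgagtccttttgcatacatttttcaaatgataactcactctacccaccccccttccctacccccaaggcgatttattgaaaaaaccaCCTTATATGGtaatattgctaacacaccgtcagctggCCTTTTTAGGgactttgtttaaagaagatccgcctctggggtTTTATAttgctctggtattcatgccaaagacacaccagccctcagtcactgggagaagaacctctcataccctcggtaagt
EGR1: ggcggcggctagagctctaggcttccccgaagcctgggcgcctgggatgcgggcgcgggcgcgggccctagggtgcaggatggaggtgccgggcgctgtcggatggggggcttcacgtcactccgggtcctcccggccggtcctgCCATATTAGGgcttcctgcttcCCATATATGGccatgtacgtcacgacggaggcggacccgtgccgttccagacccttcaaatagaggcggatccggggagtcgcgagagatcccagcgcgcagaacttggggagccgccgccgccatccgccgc
The first bases of the ACTG2 boxes lie 110 and 73 bases before the start site and those of EGR1 105 and 83 bases before it. A TATA box (TATAAA) was found in 12 of the 50 promoters (24%), against 5.49% of all, and its carriers include C1QTNF3, FAM198B, LBH, SELENOP and the 3 histone genes. The share of promoters with an AP-1 motif (TGANTCA) was 4% against 3.98%, with an E-box (CANNTG) 58% against 57.1%, with the hypoxia response core (ACGTG) 18% against 28.2%, and with a TEAD motif (GGAATG) 14% against 11.2%. A match of letters is a description of the window and not a site.

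Matrix genes formed the largest group with a named role, 12 genes, and 9 of them were highest at T5 among the low doses. FN1, fibronectin, had 171.8 CPM in C, 991.8 at T1, 2132 at T2.5, 2043 at T5, 3407 at T10, 2725 at T20, 3727 at T40, 2891 at T80, 512.4 at T160 and 656.0 at T320. It was thus higher at every middle dose than at any low dose. SPARC, a collagen-binding matricellular protein, had 892.0 CPM in C, 1447 at T1, 2492 at T2.5, 3211 at T5, 1207 at T10, 1042 at T20, 998.6 at T40, 642.7 at T80, 440.7 at T160 and 620.3 at T320, so its maximum was narrower. Its relative SPARCL1 reached 105.3 CPM in T5 and lay between 9.7 and 32.9 CPM in T1, T2.5 and T10 to T80. BGN, the small proteoglycan biglycan, had 7.3 CPM in C, 38.0 at T1, 92.1 at T2.5, 122.0 at T5 and 174.3 at T10, with 20.9 at T80, and was listed at 0 at T160 and T320. FBLN5, the elastic-fibre protein fibulin 5, was 14.1-fold higher in T5 than in C (11.2 to 17.9), at 149.3 against 10.6 CPM.

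LTBP1, which stores latent TGF-beta in the matrix, was high from the first dose, with 179.8 CPM at T1, 139.5 at T2.5, 194.3 at T5 and 212.3 at T10, against 16.5 in C. HSPG2, the basement-membrane proteoglycan perlecan, was the matrix gene highest at T1, at 204.7 CPM, against 52.0 in C. TGM2, a transglutaminase that crosslinks proteins, was 2.13-fold higher in T1 than in C (1.95 to 2.33) and had its maximum of 303.5 CPM in T20. FBN2 (fibrillin 2), SBSPON, ADAMTS12 (a metalloprotease) and ISLR were all highest at T5, at 217.6, 142.7, 87.0 and 58.2 CPM, against 61.0, 19.4, 9.2 and 5.7 CPM in C.

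Of the 9 ligands, secreted factors and receptors, IGF2 was by far the most abundant. This insulin-like growth factor gene, imprinted in normal tissue, had 775.0 CPM in C, 5663 at T1, 7311 at T2.5, 9210 at T5, 7046 at T10, 3866 at T20, 3742 at T40, 1949 at T80, 2373 at T160 and 419.7 at T320. Its T5 level was 11.9-fold that of C (11.6 to 12.2) and 21.9-fold that of T320 (20.7 to 23.3). Of the 31-base words in the last 500 bases of its longest transcript 64.5% also occur in other genes, mostly the overlapping entry AC132217.1, so its reads may be split or shared. C1QTNF3 and CCDC3, secreted proteins, and FAM198B were higher at each successive low dose. C1QTNF3 had 37.5 CPM in T1, 104.0 in T2.5 and 175.6 in T5, against 10.1 in C, CCDC3 had 34.5, 84.1 and 117.4, against 9.7 in C, and FAM198B had 51.5, 99.8 and 226.7, against 9.8 in C. At T10 FAM198B kept 188.8 CPM, while C1QTNF3 had 39.1 and CCDC3 13.99 CPM. The receptors were high from the first dose. ADGRG2, an adhesion G-protein-coupled receptor, was 20.4-fold higher in T1 than in C (13.4 to 32.3), and GRIN2A, an NMDA receptor subunit, 8.81-fold (7.05 to 11.1). ACKR3, a scavenger receptor for the chemokine CXCL12, had 50.8 CPM in T1, 57.9 in T2.5 and 53.1 in T5, against 7.8 in C. IL11RA and SELENOP, the interleukin-11 receptor and a selenium carrier, were highest in T5 at 110.8 and 305.2 CPM, against 41.0 and 86.7 CPM in C.

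Guidance and adhesion genes, also 9, had their largest median difference from C at T1, 2.03 on the L scale, with 1.58 in T2.5 and 1.94 in T5. PLXNA4, a plexin receptor for semaphorins, had 10.8 CPM in C, 324.4 at T1, 128.9 at T2.5, 173.6 at T5, 181.7 at T10, 133.8 at T20, 35.7 at T40, 33.1 at T80, 10.8 at T160 and 0 at T320. Its first-dose level was 30.01-fold that of C (24.6 to 37.1), a ratio close to that of GPC3, the surface proteoglycan glypican 3, at 29.1-fold (21.7 to 39.8). GPC3 had 149.3 CPM at T1, 64.0 at T2.5, 102.2 at T5, 57.4 at T10 and 12.2 at T20, against 5.1 in C. SEMA3D, a secreted semaphorin, ran the other way through the low doses, with 52.1 CPM at T1, 62.1 at T2.5, 167.0 at T5 and 135.4 at T10, against 20.1 in C. NRP1, a co-receptor of semaphorins, had 44.6, 46.4 and 51.6 CPM in T1, T2.5 and T5, against 11.1 in C. LSAMP and TENM4, adhesion proteins known from neurons, were 12.45-fold (9.54 to 16.5) and 17.9-fold (12.8 to 25.5) higher in T1 than in C. MSLN, the surface protein mesothelin, had 87.9 CPM at T1, 92.5 at T2.5 and 42.5 at T5, against 15.8 in C, and 4.7 at T10.

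Among the low doses, most genes with interferon-induced or nuclear roles were highest at T1. MX1, an antiviral GTPase, had 20.0 CPM in C, 143.9 at T1, 88.3 at T2.5, 24.3 at T5, 22.3 at T10, 46.1 at T20, 13.3 at T40, 5.7 at T80, 5.0 at T160 and 0 at T320. Its level relative to C was 7.19-fold (6.12 to 8.48) at T1 and 1.21-fold (0.865 to 1.67) at T5. SAMD9, also interferon-induced, had 117.8 CPM in T1, 68.1 in T2.5 and 55.7 in T5, against 15.2 in C. EGR1, an immediate-early zinc-finger factor, had 184.5 CPM in C, 1038 at T1, 490.4 at T2.5, 490.9 at T5, 615.1 at T10, 676.2 at T20, 2057 at T40, 465.9 at T80, 231.0 at T160 and 225.4 at T320. Its highest level was thus in T40, outside the doses that chose it. EMX2, a homeobox factor of the urogenital tract, had 232.8 CPM at T1, 151.6 at T2.5 and 108.3 at T5, against 69.5 in C, and 8.3 at T40 and 6.1 at T80. LBH, a transcription cofactor, peaked in T10 at 407.3 CPM, against 37.1 in C. TNRC18 and NRIP1 also peaked in T10, at 89.7 and 256.7 CPM, against 20.9 and 100.3 in C. Of the 7 nuclear regulators, 6 were highest at T1 among the low doses, the exception being TSC22D1 with 1007 CPM in T1 and 1060 in T5, against 362.5 in C.

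The remaining 17 genes included 12 of metabolic, cytoskeletal or other roles. TXNIP, the inhibitor of thioredoxin, had 965.2 CPM in T1, 542.6 in T2.5 and 604.7 in T5, against 223.7 in C. PLPP3, a lipid phosphate phosphatase, had 1045, 413.3 and 874.0 CPM in these populations, against 298.1 in C. DAPL1 was 7.47-fold higher in T1 than in C (6.38 to 8.77), but 1.14-fold in T5 (0.81 to 1.57), and it was listed at 0 from T40. The other 5 are HIST1H2AC and 4 genes with near-identical copies, whose counts are uncertain. HIST2H2AA3 and HIST2H2AA4 share all 31-base words of their ends. MTRNR2L12 and MTRNR2L8, nuclear copies of the mitochondrial 16S ribosomal RNA, have 59.8% and 41.9% of these words in other genes, most often in each other and in MT-RNR2. MTRNR2L12 had 4452 CPM in C, 30329 at T1, 12487 at T2.5, 11388 at T5, 22703 at T10, 26702 at T20, 11028 at T40, 11199 at T80, 110.6 at T160 and 269.3 at T320. Its level at the 2 highest doses was thus far below C as well, while the share of UMIs from the 13 annotated mitochondrial genes was 9.31% in T160 and 7.08% in T320. Without both MTRNR2L genes the summed level of the other 63 was 5322 CPM in C, 18822 at T1, 24119 at T2.5, 28470 at T5, 21511 at T10, 15376 at T20, 17181 at T40, 10793 at T80, 5957 at T160 and 3773 at T320.

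Other genes of the same pathways, taken from lists drawn up with earlier results in view, were compared as mean L over T1, T2.5 and T5 minus C. As the rule fixes this value for its own genes, they were left out; of the other 5455 genes 4.05% were at least 2-fold higher and 2.31% at least 2-fold lower. Of the 12 smooth muscle and contractile genes measured 6 belong to the set, and of the other 6 LMOD1 alone was higher (median 0.11). Axon guidance genes outside the set were higher in 5 of 17 (median 0.83), namely PLXNA2, PLXND1, EFNA5, SLIT2 and SLIT3, and BMP and TGF-beta genes in 5 of 15 (median 0.96), among them BMP4 and ID2. Matrix glycoproteins outside the set were higher in 3 of 12 (EFEMP2, VCAN and LAMA4) and lower in 1, SPON1 (median 0.41). Interferon-stimulated genes outside the IFI and HLA names were higher in 1 of 18, BST2, which the rule had left out by name. AP-1 and immediate-early genes were higher in 4 of 22 with 1 lower, and metallothionein and metal transport genes in none of 9. G2/M genes were lower in 7 of 23 and higher in none (median -0.84), and p53 target genes were neither in any of 12. Except for BST2, the genes named here as higher missed the rule through their levels at T160 or T320, which this comparison leaves out. EFNA5 had 209.0 CPM at T5, 229.4 at T160 and 262.2 at T320, while PLXND1 had 120.9, 58.9 and 44.6 CPM. No test was made of these lists.

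Between the low and the middle doses, T10 against T5, 20 of 57 genes were at least 2-fold lower (2.95% of all genes measured) and 2 higher (4.88%); as T5 chose the members, nothing is read from this count. The rule used the libraries from T10 to T80 in its UMI and CPM minimums alone. As it asks for high levels up to T5 and low levels at T160 and T320 of a serial escalation, it favours genes whose levels fall across the middle doses, so the counts and slopes over the set that follow are descriptions. Counting genes with 50 CPM in at least 1 library of a pair, T20 against T10 had 7 of 44 members at least 2-fold lower (3.86% of all genes measured) and 4 higher (2.8%). T40 against T20 had 16 of 36 lower (3.71%) and 3 higher (3.36%), the largest count of the 3 single steps, and T80 against T40 had 4 of 25 lower (1.92%) and none higher (0.315%). The 3 that were higher in T40 were EGR1, ACTA2 and TAGLN, and those lower were led by RGS5, MTRNR2L8, SAMD9 and EMX2. Over the whole range, T80 against T10, 23 of 39 were lower (8.84% of all), and ACTA2 was the 1 gene higher (3.62%). With TMM scaling 20 were lower. Of these 39 genes 18 reached 50 CPM in T10 alone and none in T80 alone, which favours a lower value in T80. Over all 65 genes, with no minimum for the pair (added after the data had been seen), T80 against T10 had 30 lower (7.64% of the 5520 genes) and 1 higher (3.13%), with a median of -0.98 against -0.17 over the 5520. T40 against T20 had 23 of the 65 lower (3.32%) and 3 higher (2.66%), with a median of -0.54 against 0.04.

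The trend over the 4 libraries was tested with a slope per dose step by edgeR's quasi-likelihood test, fitted on 11288 genes. No gene passed the adjusted p threshold of 0.05 (0% falling, 0% rising), and 1404 were under 0.05 unadjusted. The 4 libraries belong to 1 escalation and leave 2 residual degrees of freedom. The slope was below 0 for 58 of the 65 genes, with a median of -0.45 log2 units per step, against -0.00 over all genes, a direction that the rule favours. At an unadjusted p under 0.05, 31 of the 65 sloped down (6.64% of all genes) and 1 sloped up, ACTA2 (5.79%). ACKR3 and SEMA3D had slopes of -1.21 per step and NAV2, a neuron navigator, of -0.89, each with an adjusted p of 0.265 by the edgeR quasi-likelihood test, the lowest of the set. ACTA2 had a slope of 0.52 (edgeR adjusted p = 0.290). The other slopes above 0 were those of CA11, TAGLN, EGR1, ISLR, FN1 and CRYAB, between 0.03 and 0.27. DESeq2's Wald test called 27 of the 65 (26 falling, against 4.23% of all genes falling; 2 of the 65 had no adjusted p), and limma-voom called 1, LBH, so the call depends on the tool.

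The deposited table divides its cells into C and the states S1 to S5, and as states of this kind rest on the genes of the cells themselves, differences between them are descriptions. All listed T1 cells were S1, T2.5 held 626 S1 and 134 S2 cells, and T5 held 183 S1 and 215 S2 cells. Within T2.5, 20 of 61 genes were at least 2-fold higher in S2 than in S1 cells (2.93% of all genes measured) and 7 lower (3.3%). Within T5, 23 of 63 were higher (3.15%) and 6 lower (3.55%). Of the 60 measured in both libraries, 17 were higher in S2 in both, 3 lower in both and none opposite. This overlap was not counted over all genes, so it only describes the set. The 17 include RGS5, ACTA2, ACTG2, TAGLN, PDGFRB and EDNRA of the contractile group, BGN, FBLN5, ADAMTS12 and ISLR of the matrix, and C1QTNF3, CCDC3, FAM198B and SEMA3D; the 3 are MSLN, MX1 and DAPL1.

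PDGFRB had 66.9 CPM in S2 and 4.9 in S1 cells of T2.5, and 92.1 in S2 and 3.6 in S1 cells of T5. MX1 had 26.2 CPM in S2 and 108.2 in S1 cells of T2.5, and 3.1 in S2 and 57.3 in S1 cells of T5. The set thus held genes that were high in opposite states of the same library. Some contractile genes also differed between populations within S1: in the S1 cells of T2.5 against those of T1, ACTG2, ACTA2, CRYAB, MYL9, TAGLN and RGS5 were the 6 of 54 genes at least 2-fold higher (0.804% of all) and 8 were lower (1.1%). In S2 cells of T10 against those of T5, 21 of 57 were lower (5.25% of all) and 5 higher (9.24%). As T5 chose the members, nothing is read from this count. Of the lower genes ACTA2 differed most, with 99.5 CPM in S2 cells of T10 and 1936 in S2 cells of T5.

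**Figure D3:**
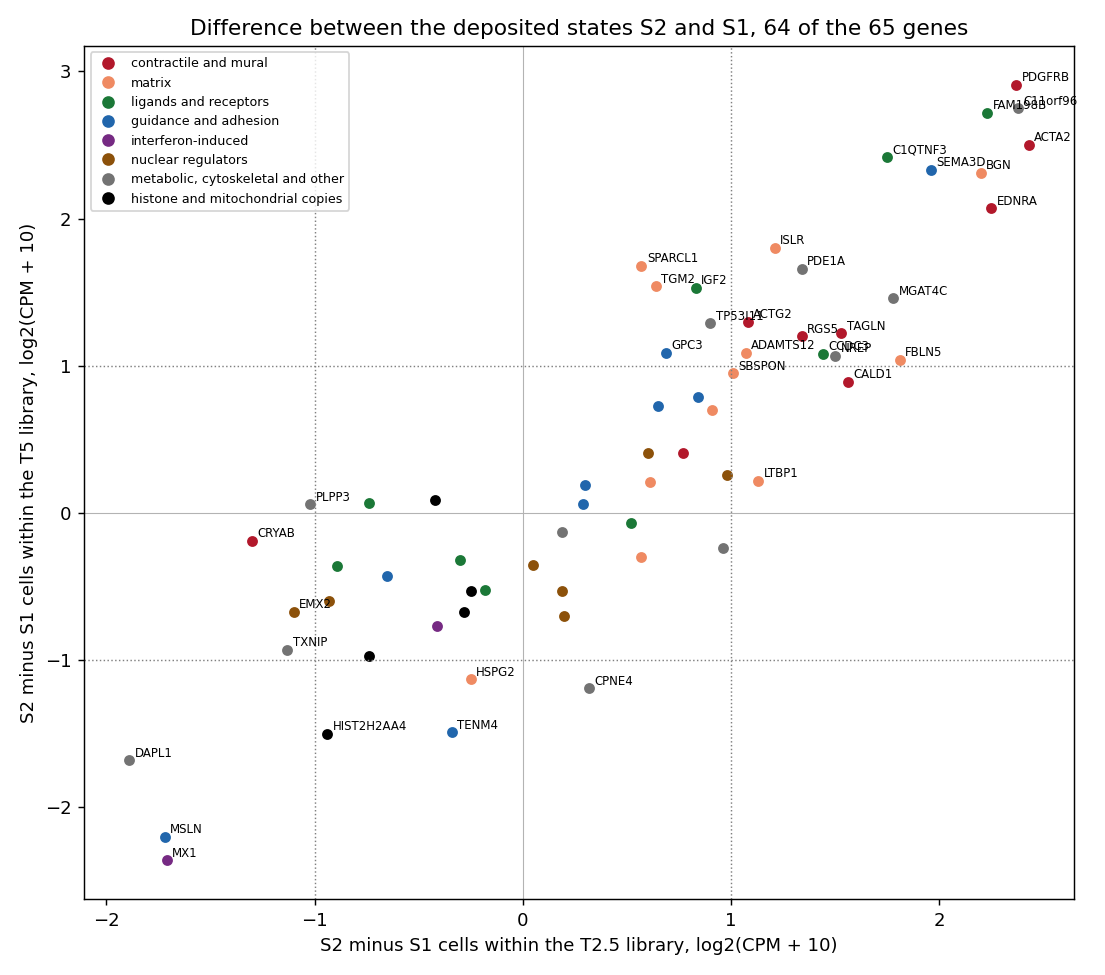
Each point is 1 of 64 of the 65 genes, coloured by role. The x axis is the S2 minus S1 difference of log2(CPM + 10) in the T2.5 library and the y axis the same in T5; dotted lines mark 2-fold. Genes past 2-fold in both libraries lie at the upper right, RGS5, ACTA2, BGN and FBLN5 among them, or at the lower left, MX1, MSLN and DAPL1; CRYAB, HSPG2 and FN1 of the same role groups are not among these, and no gene drawn is past 2-fold in opposite directions.

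From T10 the same genes were divided differently between states. In T10, 6 of 49 genes were at least 2-fold higher in S4 than in S2 cells (4.35%) and 15 lower (5.19%), and in S3 against S2 cells 7 of 49 were higher (5.05%) and 13 lower (4.98%). The 6 were ACTA2, TAGLN, ACTG2, MYL9, SBSPON and RGS5, and the 7 were CRYAB, SBSPON, CA11, ADGRG2, GRIN2A, CPNE4 and NRP1. ACTA2 had 1582 CPM in S4, 81.5 in S3 and 99.5 in S2 cells of T10, and 1287 in S4 and 92.8 in S3 cells of T80. TAGLN followed, with 2218 CPM in S4 and 494.2 in S2 cells of T10. BGN had its high values in S3, with 3.1 CPM in S4 and 133.1 in S3 cells of T80, and CRYAB likewise, with 8.1 CPM in S4 and 201.7 in S3 cells. IGF2 had 1159 CPM in S4 and 10063 in S3 cells of T80, a level in S3 near that in S2 cells of T2.5 (10445). The S4 cells made up 92.1% of the listed T80 cells and the S3 cells 7.91%. Even so, BGN had 9 UMIs in S4 and 33 in S3 cells of T80, CRYAB 24 and 50, and IGF2 3419 and 2495. In S4 against S3 cells, T40 had 4 of 33 genes higher (4.48%) and 10 lower (5.14%), and T80 had 3 of 34 higher (5.97%) and 17 lower (8.37%).

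**Figure D4:**
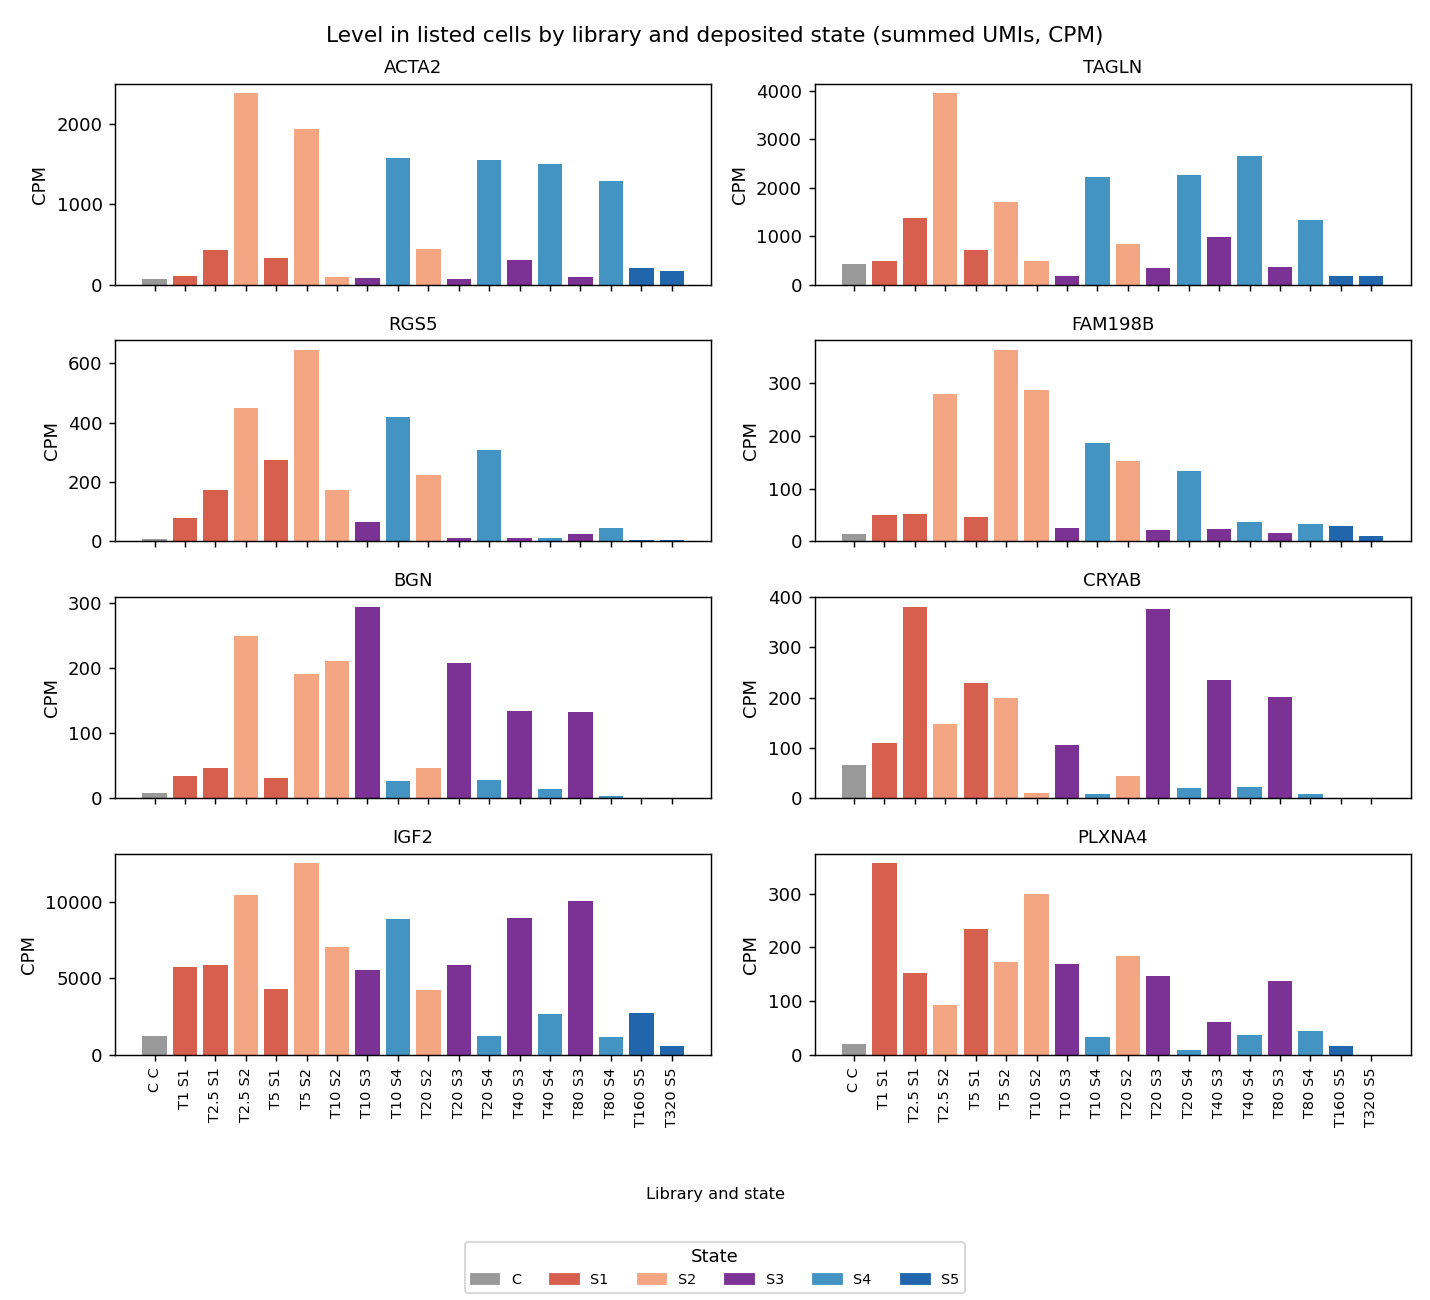
Bars give CPM of 8 genes in the listed cells of each library and state, coloured by state; 1 library per population, so there are no error bars. ACTA2 and TAGLN are high in S2 of T2.5 and T5 and then in S4, BGN and CRYAB in S3 from T10, and IGF2 in S2 and S3 (and S4 of T10).

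Levels of a population mix how many cells carry a transcript with how much each carries, so shares of cells were also taken, after each cell had been thinned to 650 UMIs (no cell was lost). The median share over the 65 genes was 5.49% of cells at T1, 6.09% at T2.5, 6.89% at T5, 4.43% at T10, 3.29% at T20, 1.64% at T40, 1.55% at T80, 1.02% at T160 and 0.90% at T320, against 1.03% in C. At T5, 14 genes were seen in over 20% of cells and 24 in under 5%. RGS5 was seen in 24.2% of T5 cells (21.2 to 27.5) and 0.81% of C cells (0.46 to 1.34), or 42.7% and 3.96% without thinning. ACTA2 was seen in 37.0% of T5 cells (33.5 to 40.7) and 2.98% of C cells (2.25 to 3.86), IGF2 in 90.1% (87.7 to 92.2) and 26.9% (24.92 to 29.02), and FN1 in 45.6% (41.9 to 49.3) and 4.01% (3.16 to 5.01). No cell type that should lack these genes is present, so the share that free RNA gives was not measured. In the unlisted cells the levels were mostly somewhat lower, with a median difference of members from listed cells between -0.14 and -0.55 over the populations, against -0.03 to 0.06 over all genes. No gene of the set was at least 2-fold higher in unlisted than in listed cells of T1, T2.5 or T5 (3.3%, 3.11% and 4.41% of all genes), and 0 of 50, 1 of 51 and 1 of 61 genes were lower in T1, T2.5 and T5 (0.0256%, 0.124% and 0.289%), namely TSC22D1 in T2.5 and HIST1H2AC in T5. In C 3 of 23 were lower in unlisted cells, TSC22D1, IGF2 with 571.9 CPM in unlisted and 1226 in listed cells, and FN1 with 73.6 and 390.2 CPM. The listed cells of T1 had 5721 CPM of IGF2 and 1106 of FN1. For these genes the ratio of T1 to C was thus smaller among listed cells than over all cells.

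**Figure D5:**
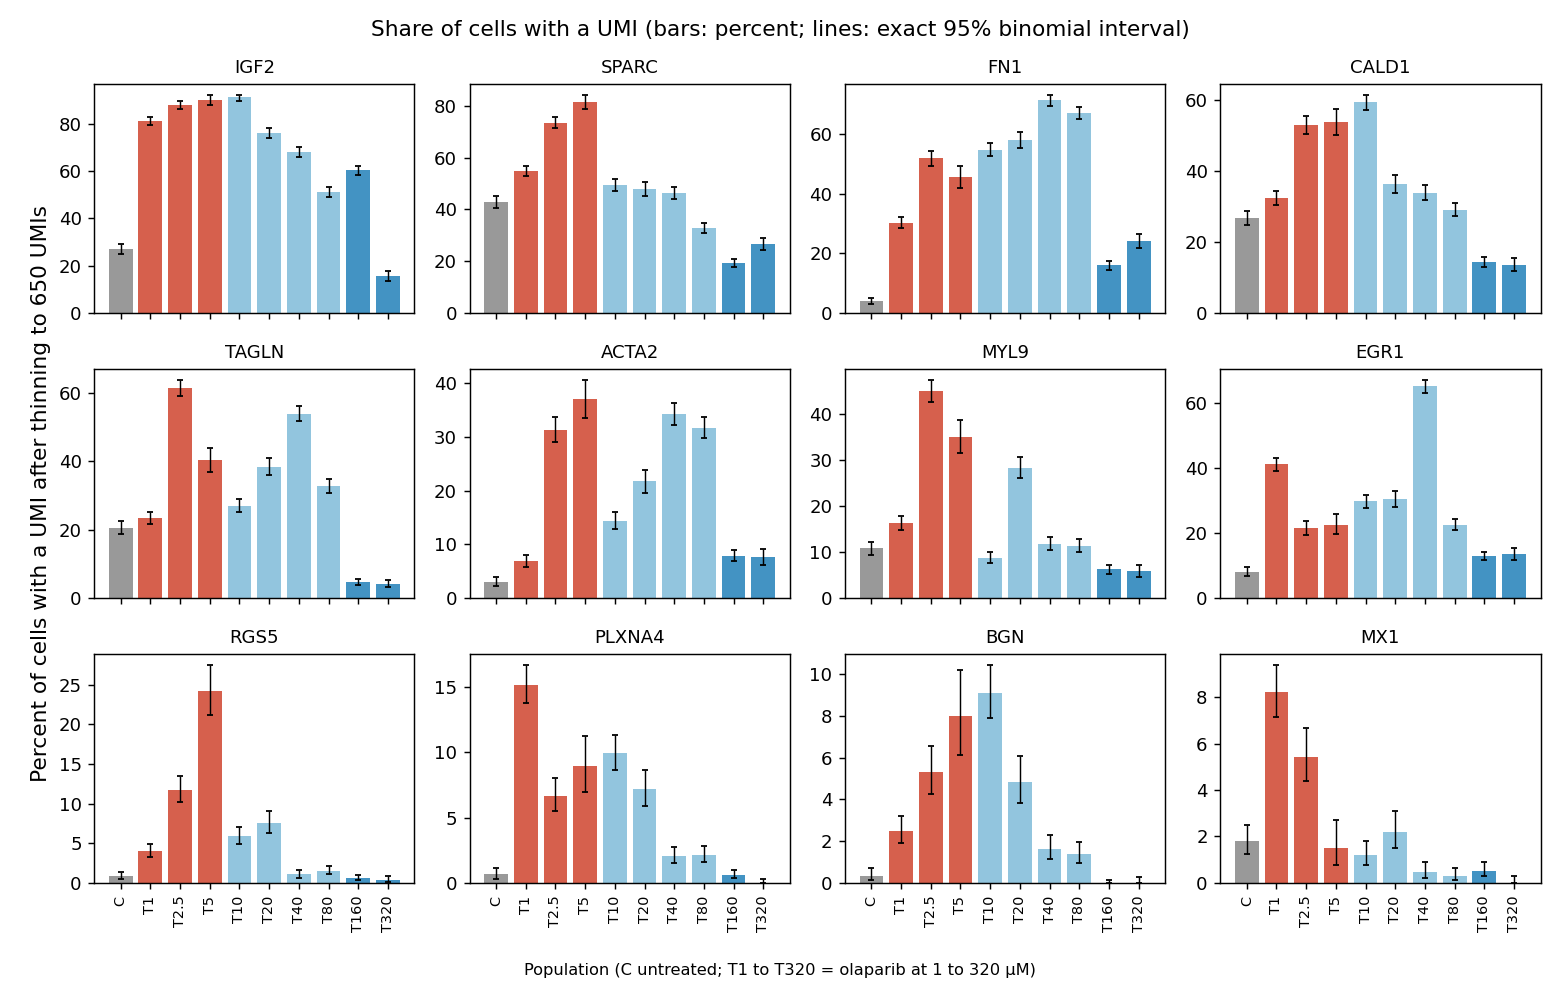
Bars give the percent of cells with a UMI of 12 genes after thinning to 650 UMIs, with exact 95% binomial intervals over cells of 1 library; colours separate C, the low, the middle and the highest doses. RGS5 is seen in fewer cells than IGF2 or SPARC at every dose, and EGR1 has its largest share at T40.

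By position, 9 of the 65 genes lie on chromosome 5 (13.8%, against 5.3% of the genes that met both minimums) and 8 on chromosome 11 (12.3%, against 6.06%). Neighbours within 1 Mb were the pair HIST2H2AA3 and HIST2H2AA4, C11orf96 and TP53I11 on chromosome 11, and ADAMTS12 and C1QTNF3 on chromosome 5, the last with a gap of 127256 bases. Ends of 54 genes share no 31-base word with another gene, and 6 share over 10%.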

How the data were processed

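The deposited matrix holds UMI counts per gene and cell for 10 inDrop libraries, 1 per population. Per the submitters' processing notes the build was hg38 (GRCh38) and Seurat 2.3.2 was used; aligner, filters and annotation were not given in the sources used here. A table by the authors lists cells with states and a mitochondrial fraction. Counts were summed over cells per population (and per state) and scaled to CPM by column total. Populations have 1 library each, so differences carry no test. The slope over T10 to T80 was tested with edgeR 4.0.16 (quasi-likelihood, TMM, Benjamini-Hochberg over genes with 100 or more UMIs in all and 20 or more over the 4 libraries), tested on simulated data first, with DESeq2 1.42.0 and limma 3.58.1 as alternatives. Python 3.11.15 and R 4.3.3 were used. States were joined to cells by name for 7322 cells and, for the 918 cells of T40, by barcode; all 8240 UMI totals were equal. The 65 genes, their role groups and the gene lists were chosen with earlier results of these data known. Genes named were the 24 with the largest rule difference, list members, those nearest the threshold, the 10 most abundant, and those extreme at the middle doses or between S2 and S1; further members are named to fill their role group. The values of 1 member are not reported here.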

Additional observations from a re-analysis of the deposited data

How the results depend on the processing

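The rule gave 65 genes, and 99 with a pseudocount of 1 CPM or 42 with 30 CPM. Leaving out a library of the rule gave 70 to 379 genes, with 379 without C and 100 without T160; without C, T160 or T320 the condition is looser and all 65 remained. TMM factors gave 67 genes (59 of the 65), thinned cells 74 (55 of the 65) and listed cells alone 63 (56 of the 65). The slope over T10 to T80 called none of the 65 by edgeR, 27 by DESeq2 and 1 by limma-voom; leaving out a library also gave 0. With a 200 CPM minimum, the genes at least 2-fold lower numbered 2 in T20 against T10, 5 in T40 against T20, 2 in T80 against T40 and 9 in T80 against T10, since fewer genes are counted. The share of all genes lower at that minimum is not given, so these counts are not set against it. In T5, 14 genes were in over 20% of cells thinned and 36 unthinned. Under TMM the median over all genes shifted by 0.1 or more for T10 against C (0.08 by column totals, -0.09 by TMM) and for T80 against T10 (-0.17 and 0.01), while the members' medians were 1.29 and 1.17 for T10 against C and -0.98 and -0.80 for T80 against T10. No paired analysis was possible because each population has 1 library. In each of the 10 libraries, at median depths from 1145 to 2974.5 UMIs per cell, a gene in under about 1% of the cells is listed at 0 in that library and cannot be seen there.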
